A study of Mus musculus with 8 samples.

Results

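Collagen chain genes were followed across 4 kinds of mouse cell culture. They were taken as every gene of the expression table whose symbol reads Col, a type number, the letter a, and a chain number, which gave 44 of the 24354 genes. The study fused extended pluripotent stem cells (EPSCs) with neural stem cells (NSCs) and compared the resulting hybrid cells with both parents and with embryonic stem cells (ESCs) by bulk poly-A RNA sequencing, with 2 libraries per group. ESCs were the E14 line, labelled wt (wild type), grown in serum with LIF. NSCs carried OG2+/- (GFP under the distal enhancer of Oct4) and ROSA+/- (ubiquitous lacZ) and were grown with EGF and FGF2 on gelatin, without feeder cells. EPSCs came from C57BL/6 embryos of the 8-cell stage (line 1, passage 15) and were also labelled wt, and the near-tetraploid hybrid cells came from polyethylene glycol fusion of EPSCs with these NSCs, selected for Oct4-GFP (line 2-2, passage 10). EPSCs and hybrid cells shared the LCDM medium (LIF, CHIR99021, dimethindene maleate, and minocycline). ESCs, EPSCs, and hybrid cells were all kept on mitomycin C-inactivated C3H mouse embryonic fibroblasts. The labels do not say whether feeder cells were removed before RNA extraction. As each group is 1 line, p-values measure the spread between libraries of the same line, not between lines. In the limma fit of all 4 groups, this spread is pooled over the groups.

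Collagens are the main structural proteins of the extracellular matrix. Their chains coil around each other into a helical molecule, are hydroxylated and folded in the endoplasmic reticulum with the help of dedicated enzymes, and are secreted, trimmed, and crosslinked outside the cell. Fibrillar collagens form the ropes of connective tissue and are the best-known product of fibroblasts, collagen IV forms the sheet of basement membranes, collagen VI forms beaded filaments, and fibril-associated collagens (FACIT) sit on the surface of fibrils. The 44 genes fell into 11 fibrillar, 9 basement membrane (with types VII, XV, and XVIII), 6 beaded filament (type VI), 9 FACIT, 3 short-chain network-forming, 4 transmembrane, and 2 unclassed genes.

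The genes' starts are given first, since neighbouring collagen IV genes are transcribed away from each other. Promoter windows of 250 bases before to 50 bases after the start were available from RefSeq (GRCm38.p6) for 35 of the 44 genes, in 38 windows. The starts used for the windows of Col4a1 (minus strand, window chr8:11312777-11313076) and Col4a2 (plus strand, window chr8:11312555-11312854) were 21 bases apart, and their windows shared 78 bases, given in capitals. Window starts need not match the gene ends printed below. The window start of Col4a1 is 11312826, for example, whereas its gene coordinates end at 11312889. Col4a5 (plus strand, window chrX:141475169-141475468) and Col4a6 (minus strand, window chrX:141474027-141474326) also pointed away from each other, with starts 1343 bases apart and no shared base. Col1a2 (plus strand, window chr6:4505368-4505667) and Col3a1 (plus strand, window chr1:45311288-45311587) are shown because they were among the most abundant fibrillar genes. In these last 4 windows, the capitals mark CCAAT or the GC box GGGCGG or else the TATA-type motif TATAAA, on either strand.
Col4a1: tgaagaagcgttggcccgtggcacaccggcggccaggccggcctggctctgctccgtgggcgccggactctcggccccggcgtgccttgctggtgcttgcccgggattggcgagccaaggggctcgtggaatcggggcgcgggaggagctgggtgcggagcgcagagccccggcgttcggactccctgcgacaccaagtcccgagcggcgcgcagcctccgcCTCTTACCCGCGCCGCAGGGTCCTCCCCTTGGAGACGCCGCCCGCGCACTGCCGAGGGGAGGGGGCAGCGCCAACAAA
Col4a2: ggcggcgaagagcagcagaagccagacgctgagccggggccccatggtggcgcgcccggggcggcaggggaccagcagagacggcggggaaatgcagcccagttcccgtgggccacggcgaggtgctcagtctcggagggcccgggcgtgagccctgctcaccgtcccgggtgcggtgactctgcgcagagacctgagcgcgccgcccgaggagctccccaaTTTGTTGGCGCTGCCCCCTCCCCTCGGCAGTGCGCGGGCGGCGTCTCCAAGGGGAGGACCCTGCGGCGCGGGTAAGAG
Col4a5: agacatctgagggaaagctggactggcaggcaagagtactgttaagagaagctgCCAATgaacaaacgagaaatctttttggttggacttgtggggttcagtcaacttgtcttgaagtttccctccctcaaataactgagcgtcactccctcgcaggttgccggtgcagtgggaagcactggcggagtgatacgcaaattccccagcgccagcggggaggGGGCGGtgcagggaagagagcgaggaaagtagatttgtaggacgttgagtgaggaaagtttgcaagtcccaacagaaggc
Col4a6: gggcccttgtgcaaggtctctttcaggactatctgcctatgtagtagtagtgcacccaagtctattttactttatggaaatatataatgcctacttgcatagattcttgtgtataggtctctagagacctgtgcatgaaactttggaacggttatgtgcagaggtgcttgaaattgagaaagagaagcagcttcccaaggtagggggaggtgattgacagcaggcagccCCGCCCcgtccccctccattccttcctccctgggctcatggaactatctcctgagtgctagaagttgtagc
Col1a2: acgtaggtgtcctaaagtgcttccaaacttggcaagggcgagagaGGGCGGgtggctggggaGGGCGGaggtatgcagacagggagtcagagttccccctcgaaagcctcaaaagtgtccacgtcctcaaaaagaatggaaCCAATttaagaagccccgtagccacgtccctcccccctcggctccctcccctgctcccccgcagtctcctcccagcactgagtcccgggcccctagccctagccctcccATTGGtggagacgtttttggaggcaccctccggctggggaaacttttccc
Col3a1: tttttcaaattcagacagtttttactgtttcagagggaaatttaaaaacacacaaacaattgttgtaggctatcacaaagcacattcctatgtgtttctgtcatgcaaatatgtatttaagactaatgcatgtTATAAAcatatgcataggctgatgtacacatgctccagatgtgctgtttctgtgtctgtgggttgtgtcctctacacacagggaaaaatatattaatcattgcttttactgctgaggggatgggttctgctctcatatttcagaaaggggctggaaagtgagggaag
The motif GGGCGG was found on either strand in 60.5% of the collagen windows and in 35.7% of all 32851 windows of the same length. CCAAT was found in 34.2% and 37.4%, and TATAAA in 13.2% and 13.6%, respectively. Matches of different motifs may share letters and were counted separately. The median GC content was 59.8% in collagen windows and 52.7% in all windows. These matches describe the letters of the windows only.

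Levels are given as FPKM (fragments per kilobase of transcript, scaled to library size), which are comparable between genes because they are set per length. The summed FPKM per library ranged from 415240 in NSC replicate 1 to 653796 in EPSC replicate 1. From the steps between low values of 2247 single-transcript genes, assuming fragments of 200 bases, depths of 22100000 to 32400000 fragments per library were derived. At these depths, 79.4% to 87.7% of the low values came within 0.1 of a whole fragment, but a whole multiple of a depth would fit as well. For a transcript of 5 kb, 3 fragments then correspond to 0.0193 to 0.0283 FPKM. Replicates correlated across genes with r of 0.988 (hybrid cells) to 0.995 (NSCs). The labelled cell types matched their markers. The 6 pluripotency markers summed to 4371 to 5229 FPKM in ESC, EPSC, and hybrid libraries and to 0.519 to 0.550 in NSCs, and the 8 NSC markers summed to 3701 to 3750 in NSCs and to 10.6 to 19.3 elsewhere.

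Of the 44 collagen genes, 25 reached a mean of 1 FPKM in at least 1 group and were tested. The other 19 stayed at or under 0.875 FPKM in every library, and 7 of them were listed at 0 in 2 or more libraries. A gene that passed this filter through 1 high group had to differ, so counts over the 25 are read only against the same counts over all 13239 genes tested. Mean collagen FPKM was highest in hybrid cells for 15 of the 25 (20.8% of all genes tested), in NSCs for 6 (39.7%), in ESCs for 4 (20.5%), and in EPSCs for none (0, against 19%).

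**Figure D1:**
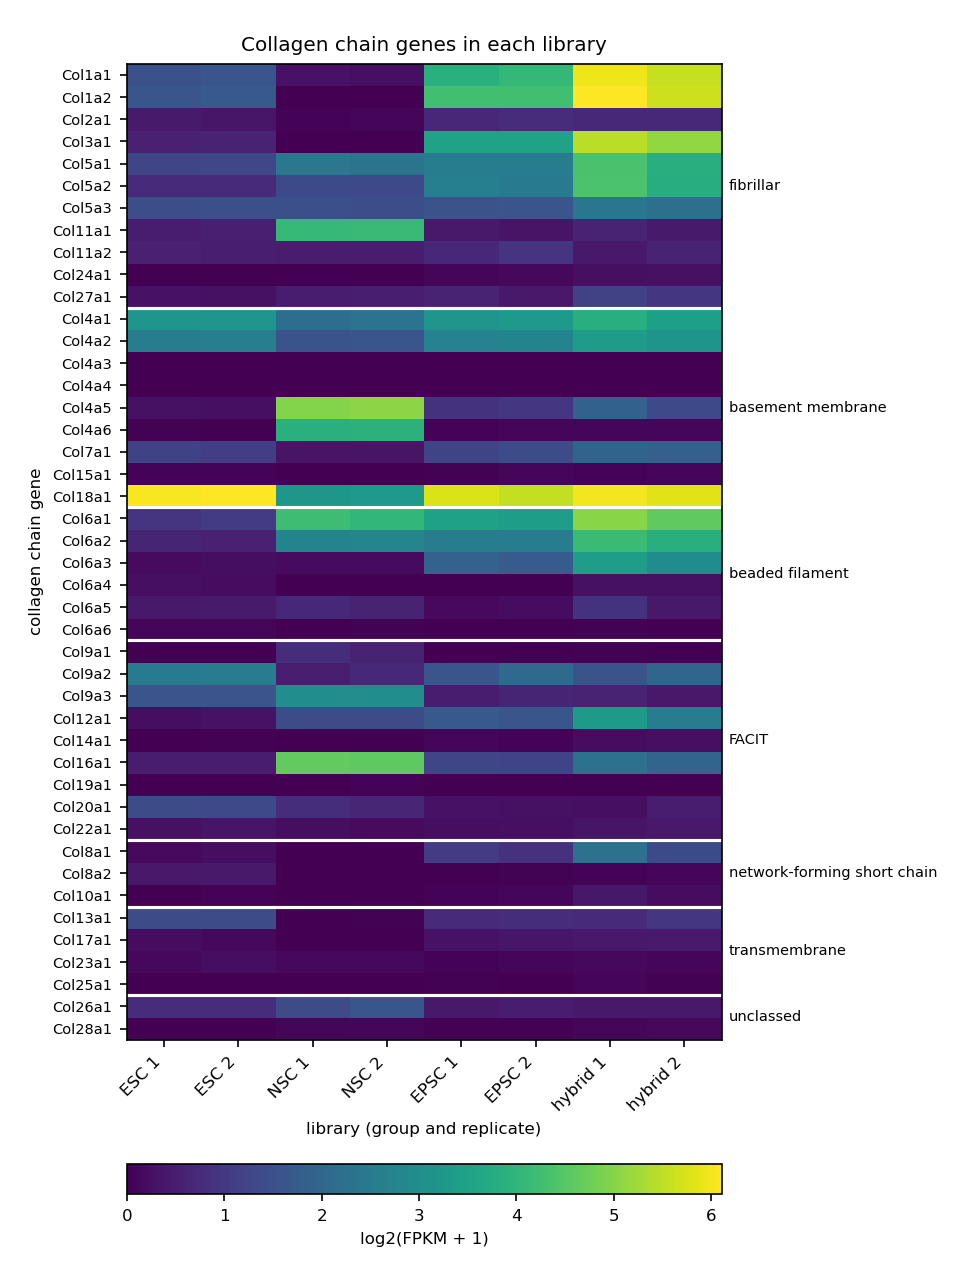
Level of each of the 44 collagen genes (rows, by class) in each of the 8 libraries (columns), as log2(FPKM + 1) on a color scale from 0. Col18a1 is bright in ESC, EPSC, and hybrid libraries, types I and III are brightest in hybrid libraries, and Col4a5, Col16a1, Col11a1, and Col4a6 are brightest in NSC libraries.

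The 44 genes together summed to 106.0 ± 2.60 FPKM (SD, n = 2) in ESCs, 144.4 ± 0.445 in NSCs, 150.7 ± 2.73 in EPSCs, and 344.7 ± 64.1 in the hybrid cells. Their composition differed between the groups. Col18a1, whose protein is a basement membrane proteoglycan and the source of endostatin, made up 62.8% of collagen FPKM in ESCs, 32.8% in EPSCs, 17.4% in hybrid cells, and 5.94% in NSCs. In NSCs, Col4a5 led with 21.7%, followed by Col16a1 with 16.4%. In hybrid cells, Col1a2, Col1a1, and Col3a1 followed Col18a1 with 16.7%, 15.5%, and 11.2%.

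By class, fibrillar genes summed to 9.97 ± 0.365 FPKM in ESCs, 25.1 ± 0.205 in NSCs, 57.3 ± 1.48 in EPSCs, and 189.4 ± 40.3 in the hybrid cells. Beaded filament genes summed to 2.25 ± 0.0668, 23.0 ± 1.31, 17.7 ± 0.546, and 51.6 ± 10.8 in the same order. The basement membrane sum stayed within a narrower range, at 81.4 ± 1.92, 59.9 ± 1.90, 66.1 ± 4.34, and 84.8 ± 8.83. Its members did not, as Col18a1 was lowest in NSCs and Col4a5 and Col4a6 were highest there. FACIT genes were highest in NSCs, at 9.31 ± 0.192, 34.3 ± 0.629, 7.14 ± 0.724, and 14.1 ± 2.7. The 2 hybrid libraries lay farthest apart, with 217.9 and 160.9 FPKM for the fibrillar sum in replicates 1 and 2. A spread pooled over the groups can therefore understate theirs.

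**Figure D2:**
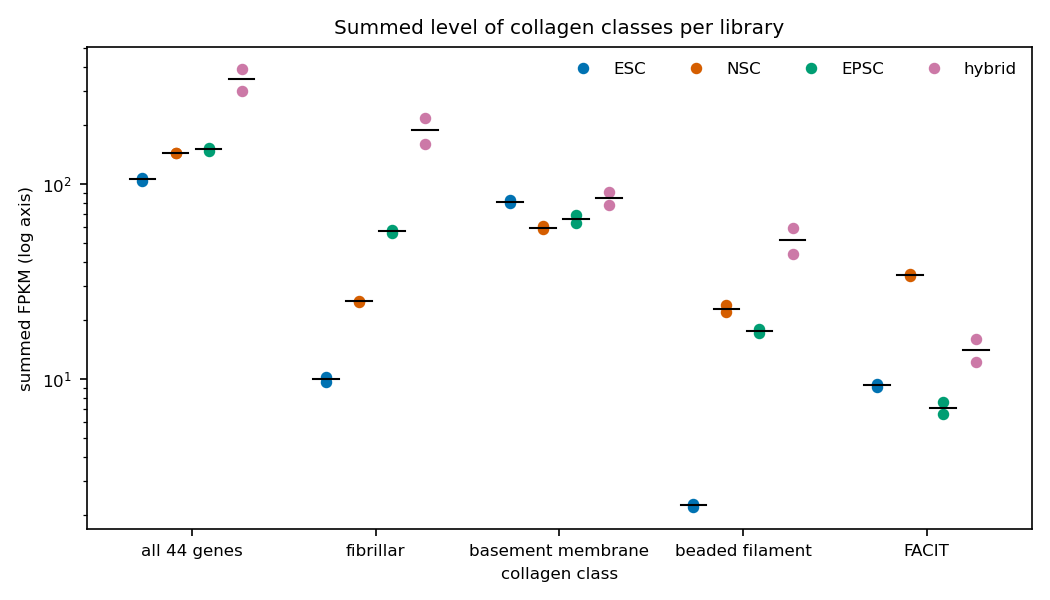
Summed FPKM (log axis) of all 44 collagen genes and of the 4 largest classes in each library, with points for libraries and black lines for group means. Fibrillar sums are 161 and 218 in hybrid cells against 56.2 and 58.3 in EPSCs, whereas the basement membrane sums of all 8 libraries lie between 58.6 and 91.1.

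Fibrillar genes had the largest difference in summed FPKM between the feeder-cultured groups. Type I collagen, the main collagen of bone and skin, is built from the products of Col1a1 and Col1a2. Col1a1 (chr11:94936224-94953042, mm10) was at 1.86 and 2.06 FPKM in the ESC libraries, 0.226 and 0.192 in NSCs, 13.7 and 15.7 in EPSCs, and 61.0 and 46.2 in the hybrid cells. Col1a2 (chr6:4505618-4541543) was at 2.06 and 2.34 in ESCs, 18.0 in both EPSC libraries, and 67.0 and 48.5 in hybrid cells, and it was listed at 0 in both NSC libraries. The 4 groups did not overlap for either gene, with the order hybrid, EPSC, ESC, and NSC.

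Col3a1 (chr1:45311538-45349706), the chain of type III collagen of soft tissue, was at 0.477 and 0.527 in ESCs, 0 and 0.00645 in NSCs, 10.4 and 10.5 in EPSCs, and 43.6 and 33.4 in the hybrid cells. It had the same order of groups as the type I genes. Type V collagen sets the diameter of type I fibrils. Col5a1 (chr2:27886381-28039510) was at 1.43 and 1.44 in ESCs, 4.39 and 4.14 in NSCs, 4.93 and 5.05 in EPSCs, and 19.3 and 13.4 in the hybrid cells. Col5a2 (chr1:45374331-45503282) was at 0.669 and 0.678 in ESCs, 1.60 and 1.54 in NSCs, 5.17 and 4.73 in EPSCs, and 19.8 and 13.0 in the hybrid cells. Both type V genes thus had ESCs, not NSCs, as the lowest group. Hybrid libraries lay above all others for these 5 genes.

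Col11a1 (chr3:114030479-114220756), a minor fibrillar chain of cartilage, had another pattern. It was at 16.1 and 16.7 FPKM in NSCs, 0.397 and 0.458 in ESCs, 0.337 and 0.251 in EPSCs, and 0.498 and 0.366 in the hybrid cells. The NSC libraries stood far above the rest, and the hybrid and ESC libraries overlapped. A further 2 fibrillar genes were also highest in hybrid cells. Col5a3, the third type V chain, was at 4.29 and 3.76 there and at 1.76 to 2.05 in the other 6 libraries, and Col27a1 was at 1.26 and 0.944 against 0.204 to 0.490.

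Among basement membrane genes, Col18a1 (chr10:77052178-77166530) had the highest group mean of all collagen genes in every feeder-cultured group, although Col1a2 exceeded it in hybrid replicate 1. It was at 65.3 and 67.9 FPKM in ESCs, 8.46 and 8.69 in NSCs, 53.3 and 45.7 in EPSCs, and 62.6 and 56.4 in the hybrid cells. Hybrid libraries lay between those of EPSCs and ESCs. Col4a1 (chr8:11198423-11312889) and Col4a2 (chr8:11312805-11449287) encode the chains of the ubiquitous collagen IV network. Col4a1 was at 8.04 and 8.28 in ESCs, 3.59 and 4.03 in NSCs, 8.04 and 8.89 in EPSCs, and 13.2 and 9.86 in the hybrid cells. Col4a2 was at 5.04 and 5.12, 1.94 and 2.03, 5.5 and 5.70, and 9.45 and 8.0 in the same order. NSCs were lowest and hybrid cells highest for both, and ESC and EPSC libraries overlapped for Col4a1. Exons of these neighbours overlap on opposite strands, and the strand setting of the counting is not stated, so shared reads cannot be told apart.

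The X-linked pair behaved differently from its autosomal relatives. Col4a5 (chrX:141475370-141689236), mutated in X-linked Alport syndrome, was at 30.5 and 32.1 FPKM in NSCs, 0.207 and 0.198 in ESCs, 0.854 and 0.952 in EPSCs, and 2.74 and 1.56 in the hybrid cells. Col4a6 (chrX:141165403-141474095), whose window is printed above beside that of Col4a5, was at 13.8 and 14.1 in NSCs and at 0.0157 to 0.0836 in the other 6 libraries. For Col4a5, the hybrid libraries lay above those of EPSCs and far below those of NSCs. For Col4a6, hybrid and EPSC libraries overlapped, and the ESC values of 0.0191 and 0.0157 were near the level of 3 fragments. Col7a1, the chain of anchoring fibrils, was at 2.92 and 2.65 in hybrid cells, 1.38 and 1.66 in EPSCs, 1.30 and 1.18 in ESCs, and 0.257 in both NSC libraries.

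Beaded filament collagen VI is assembled from the products of Col6a1, Col6a2, and, in its classical form, Col6a3. Col6a1 (chr10:76708792-76726044) was at 0.929 and 1.10 FPKM in ESCs, 17.4 and 15.5 in NSCs, 10.3 and 9.70 in EPSCs, and 31.6 and 23.4 in the hybrid cells. Col6a2, on the same chromosome (chr10:76595756-76623630) was at 0.540 and 0.466, 5.80 and 5.88, 4.94 and 5.02, and 17.0 and 13.3 in the same order. Col6a3 (chr1:90766860-90844001) was at 0.137 and 0.161, 0.123 and 0.129, 2.79 and 2.44, and 9.60 and 6.80. For Col6a1 and Col6a2, both NSC libraries were above both EPSC libraries, a difference that passed the limma test for Col6a1 only, while Col6a3 did not exceed 0.161 in either NSCs or ESCs. The other 3 type VI genes were under the filter.

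Of the FACIT genes, 3 reached the level for full values. Col12a1 (chr9:79598987-79721141), found on type I fibrils, was at 0.169 and 0.223 FPKM in ESCs, 1.65 in both NSC libraries, 2.25 and 2.10 in EPSCs, and 8.98 and 5.06 in the hybrid cells. Col16a1 (chr4:130047817-130099277) was at 0.376 and 0.397, 24.1 and 23.2, 1.40 and 1.33, and 3.97 and 2.97 in the same order. Col9a3 (chr2:180598102-180622192), a chain of cartilage collagen IX, was at 2.06 and 2.04, 6.90 and 7.09, 0.410 and 0.559, and 0.519 and 0.332. Col12a1 was thus highest in hybrid cells and lowest in ESCs, whereas Col16a1 and Col9a3 were highest in NSCs, and Col9a3 overlapped between hybrid cells and EPSCs. An exon of Col9a3 overlaps Tcfl5 on the opposite strand, with the same limit as for Col4a1. Col9a2 was highest in ESCs, at 4.67 and 4.94, and was 0.427 to 3.21 elsewhere.

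In each of 3 small classes, 1 gene passed the filter. Col8a1, a short-chain network collagen of vessel walls and the cornea, was at 3.84 and 1.59 FPKM in the hybrid cells, 1.12 and 0.822 in EPSCs, and 0.119 and 0.165 in ESCs, and was listed at 0 in both NSC libraries. The transmembrane gene Col13a1 was highest in ESCs, at 1.68 and 1.67, against 0.646 to 0.968 in EPSCs and hybrid cells and 0.0126 and 0.0250 in NSCs. Col26a1, of no fixed class here, was highest in NSCs, at 1.68 and 2.09, and was 0.325 to 0.721 elsewhere.

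**Figure D3:**
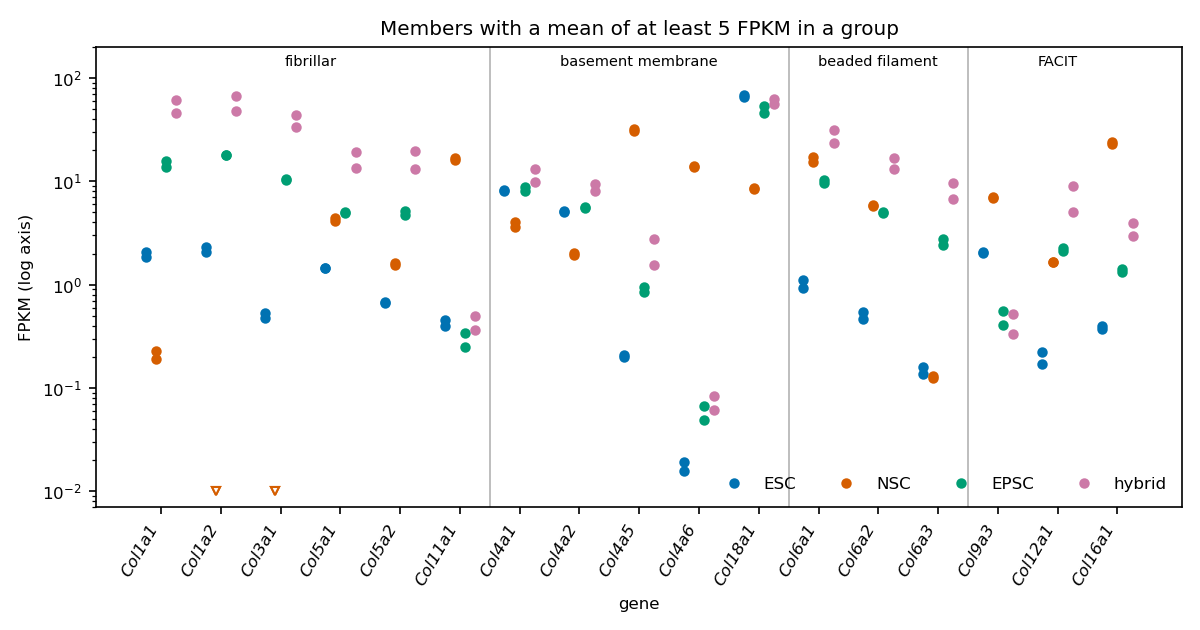
FPKM (log axis) of the 17 collagen genes with a mean of at least 5 FPKM in 1 group or more, with 1 point per library and colors for groups. Open triangles at the foot of the axis mark values under 0.01, which are both NSC libraries of Col1a2 and Col3a1. Hybrid points are topmost for types I, III, V, VI, and XII, and NSC points are topmost for Col11a1, Col4a5, Col4a6, Col9a3, and Col16a1.

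The comparison of hybrid cells with EPSCs asked how the fused cells differ from their pluripotent parent. With limma on log2(FPKM + 1) and Benjamini-Hochberg adjustment at 0.05, 18 of the 25 tested collagen genes were higher in hybrid cells, where 22.5% of all genes were. No collagen gene (0) was lower, where 21.9% of all genes were, and 0 were lower at an unadjusted p under 0.05. With a change of over 2-fold also required, 9 were higher (2.21% of all genes) and 0 lower (1.35%). These 9 were Col1a1, Col1a2, Col3a1, Col5a1, Col5a2, Col6a1, Col6a2, Col6a3, and Col12a1. Here and below, the fold required beside limma is taken on FPKM + 1, which shrinks ratios of low values. Col16a1, Col27a1, Col4a5, Col5a3, and Col8a1 were called below this cut, at ratios of mean FPKM of 2.01 to 2.79. The median log2 difference was 0.70 over the collagen genes and 0.00 over all genes tested. In bulk RNA, a different share of cells of a type and a different amount of RNA per cell cannot be told apart.

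Col1a1 rose by 1.79 on the log2 scale (SE 0.14, limma adjusted p = 0.00019), Col3a1 by 1.78 (SE 0.12, adjusted p = 0.00013), and Col1a2 by 1.61 (SE 0.14, adjusted p = 0.00032). Of all genes tested, 22.5% were higher, which is the background for each class. Of the fibrillar genes, 7 of 8 rose, all but Col11a1 (0.14, SE 0.08, adjusted p = 0.191), with a class median of 1.52. Col27a1, 1 of these, passed the filter through the hybrid cells alone, as did Col8a1 below. The filter thus fixed the direction of both genes in every comparison with hybrid cells. All 3 tested type VI genes rose, by 1.36 (Col6a1, SE 0.14), 1.42 (Col6a2, SE 0.11), and 1.33 (Col6a3, SE 0.14). Of the basement membrane genes, 5 of 6 rose, but by less, with a class median of 0.47. Col4a2 rose by 0.55 (SE 0.09, adjusted p = 0.003) and Col4a5 by 0.70 (SE 0.16, adjusted p = 0.0113), while Col4a6 differed by 0.02 (SE 0.06, adjusted p = 0.835). The call of Col4a5 was lost with only EPSCs and hybrid cells in the fit (limma adjusted p = 0.0504). Among FACIT genes, 2 of 5 rose, which were Col12a1 (1.29, SE 0.20) and Col16a1 (0.91, SE 0.11).

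The calls of Col18a1 (0.26, SE 0.09, adjusted p = 0.041), Col4a1 (0.39, SE 0.13, adjusted p = 0.0444), and Col8a1 (0.85, SE 0.25, adjusted p = 0.0296) were less firm. With the replicate number as a block in the fit, Col4a1 lost its call (limma adjusted p = 0.0536). The difference of Col4a1 was 0.20 without hybrid replicate 1, and that of Col18a1 was 0.15 without EPSC replicate 2. Col18a1 lost its call in 6 of the 8 refits that left out 1 library (adjusted p up to 0.183), in all but those without EPSC replicate 1 or hybrid replicate 2. Col4a1 lost it in 7 (up to 0.165), in all but that without hybrid replicate 2. Col8a1 lost it in 6 (up to 0.118), in all but those without a hybrid library.

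On a threshold rule taken from the study's methods, read here as a mean over 3 FPKM in the higher group and a ratio over 3, 8 of the 44 genes were higher in hybrid cells and 0 lower, where 0.567% and 0.3% of all genes were. These were the 9 genes above without Col6a1. Their ratios of mean FPKM ran from 3.04 (Col6a2) to 3.69 (Col3a1), close to the threshold. Without hybrid replicate 1, the library with the higher collagen values, only 2 genes passed this rule.

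**Figure D4:**
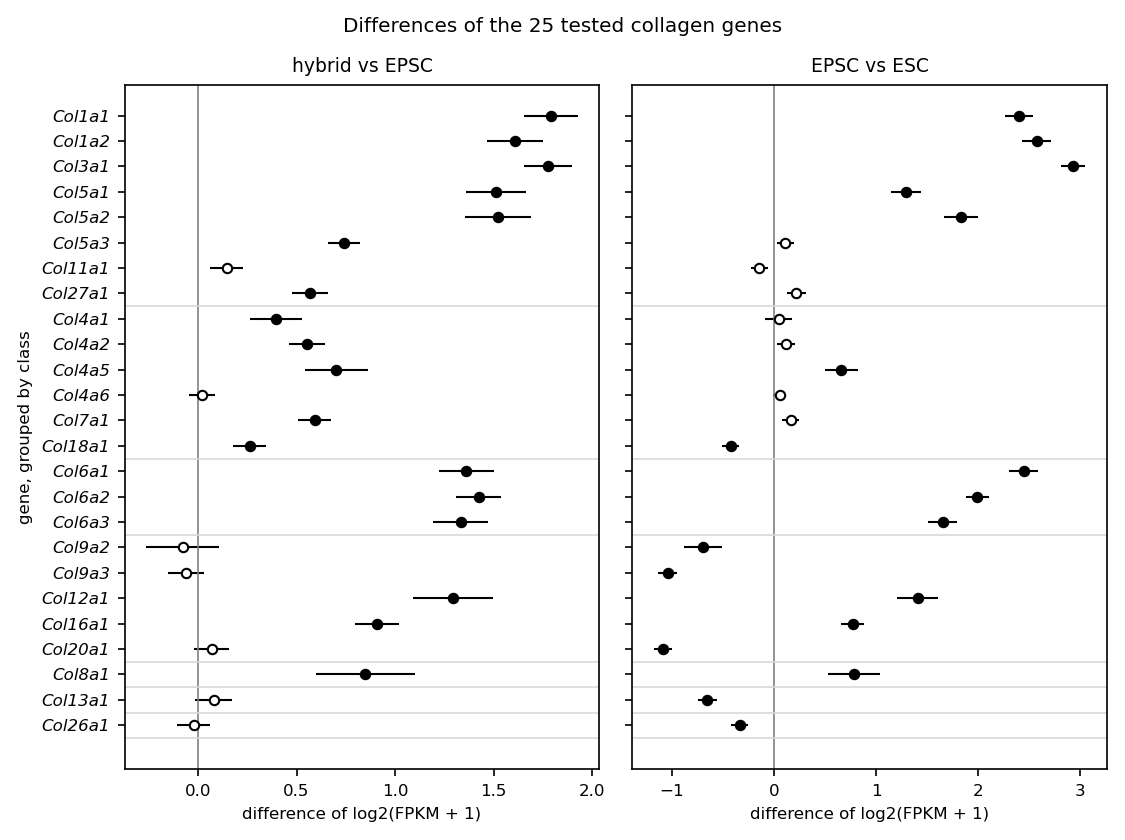
Difference of log2(FPKM + 1) for the 25 tested collagen genes, hybrid cells against EPSCs (left) and EPSCs against ESCs (right), with SE bars from limma. Filled points have an adjusted p under 0.05. On the left, types I, III, V (Col5a1, Col5a2), VI, and XII lie between 1.29 and 1.79, and no filled point is below 0. Both sides share the EPSC libraries.

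The comparison of EPSCs with ESCs set 2 pluripotent cultures on feeders side by side. Here 12 of the 25 genes were higher in EPSCs (33.7% of all genes) and 6 lower (27.3%). With over 2-fold on FPKM + 1 required, 9 were higher (5.08%) and 2 lower (4.81%). Called genes below this cut included Col16a1, Col4a5, and Col8a1, with ratios of mean FPKM of 3.54, 4.46, and 6.84. Lower ones included Col13a1 and Col26a1, with ratios of 0.421 and 0.499. Col3a1 rose by 2.93 (SE 0.12, limma adjusted p = 4e-06), Col1a2 by 2.57 (SE 0.14), Col6a1 by 2.45 (SE 0.14), and Col1a1 by 2.40 (SE 0.14). The fibrillar and type VI medians were 1.56 and 1.99, against 0.04 for all genes tested. On the threshold rule, 7 were higher (1.28% of all genes) and 0 lower (1.29%). Col18a1 fell by 0.42 (SE 0.09, adjusted p = 0.00384), and Col4a1 and Col4a2 differed by 0.05 (SE 0.13, adjusted p = 0.785) and 0.12 (SE 0.09, adjusted p = 0.289).

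The genes lower in EPSCs than in ESCs also included Col20a1 and Col9a3, which fell by 1.09 (SE 0.09) and 1.04 (SE 0.09), Col9a2 and Col13a1, which fell by 0.69 (SE 0.19) and 0.65 (SE 0.09), and Col26a1, which fell by 0.34 (SE 0.08). Col20a1 and Col13a1 passed the filter through ESCs alone, so the filter fixed their direction in every comparison with ESCs. The calls of 4 genes were lost in refits without 1 library. Col8a1 lost its call without any 1 of the ESC, NSC, or EPSC libraries (adjusted p up to 0.122), and Col9a2 without ESC replicate 1, ESC replicate 2, or EPSC replicate 1 (up to 0.0739). Col4a5 lost it without either ESC library (up to 0.0516), and Col26a1 without ESC replicate 2 (0.0532). Col27a1 (0.22, SE 0.09, adjusted p = 0.0717) was called only without hybrid replicate 2 (0.0333).

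Hybrid cells were also set against ESCs, where 17 genes were higher (35.3% of all genes) and 5 lower (30.2%). With over 2-fold required, 12 were higher (7.39%) and 2 lower (6.16%). Col3a1, Col1a1, and Col1a2 were higher by 4.71 (SE 0.12), 4.19 (SE 0.14), and 4.18 (SE 0.14), and Col6a1, Col6a2, and Col6a3 by 3.81, 3.42, and 2.98. Col18a1 did not pass the test (-0.16, SE 0.09, adjusted p = 0.131), but was called lower with libraries scaled to the same sum (-0.23, adjusted p = 0.0279) and with quantile normalization (-0.22, adjusted p = 0.0349). On the threshold rule, 10 genes were higher (1.98%) and 0 lower (1.65%). The call of Col4a1 (0.44, SE 0.13, adjusted p = 0.02) was lost without ESC replicate 1, ESC replicate 2, or hybrid replicate 1 (up to 0.0961).

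Against NSCs, the somatic parent without feeders, most of the tested genes differed, so counts say less. In hybrid cells, 18 collagen genes were higher (44.5% of all genes) and 7 lower (42.0%). With over 2-fold on FPKM + 1 required, 14 were higher (23.3%) and 6 lower (23.9%), and on the threshold rule 10 were higher (6.92%) and 5 lower (8.87%). Col27a1, Col5a3, and Col20a1 were called below the 2-fold cut, at ratios of mean FPKM of 2.78, 2.23, and 0.448. So was Col13a1, whose NSC values rest on few fragments. The 7 lower genes were Col11a1 (fell by 3.61, SE 0.08), Col4a6 (fell by 3.80, SE 0.06), Col4a5 (fell by 3.38, SE 0.16), Col9a3 (fell by 2.49, SE 0.09), Col16a1 (fell by 2.47, SE 0.11), Col26a1 (fell by 1.11, SE 0.08), and Col20a1 (fell by 0.36, SE 0.09). Of these, Col11a1, Col4a6, and Col26a1 passed the filter through NSCs alone, so the filter fixed their direction in every comparison with NSCs. Among the higher genes were Col1a2 (5.86, SE 0.14), Col1a1 (5.48, SE 0.14), Col3a1 (5.29, SE 0.12), and Col6a3 (3.01, SE 0.14). They also included Col18a1 (2.66, SE 0.09), Col5a2 (2.73, SE 0.17), and Col6a1 (0.70, SE 0.14, adjusted p = 0.0019). When every library was scaled to the same FPKM sum, Col6a1 was at 0.10 (adjusted p = 0.503), while the median of all genes moved from 0.06 to -0.50.

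EPSCs and ESCs were compared with NSCs in the same way. In EPSCs, 12 genes were higher (45.2% of all genes) and 8 lower (41.0%), or 8 (23.0%) and 6 (23.9%) with over 2-fold required. In ESCs, 10 were higher (42.8%) and 11 lower (41.9%), or 6 (21.0%) and 9 (23.6%). On the threshold rule, 5 were higher (6.7%) and 5 lower (8.94%) in EPSCs, and 2 (6.34%) and 7 (8.65%) in ESCs. The log2 difference of Col4a5 was -4.09 in EPSCs and -4.75 in ESCs (SE 0.16). Col16a1 stood at -3.38 and -4.15 (SE 0.11), and Col11a1 at -3.75 and -3.61 (SE 0.08). In the other direction, Col1a2 was at 4.25 and 1.68 (SE 0.14) and Col1a1 at 3.69 and 1.29 (SE 0.14). Col3a1 was at 3.51 and 0.58 (SE 0.12), and Col18a1 at 2.40 and 2.82 (SE 0.09). These comparisons and the preceding one share the NSC libraries. Col6a1 and Col6a2 were lower in ESCs than in NSCs (fell by 3.11, SE 0.14, and by 2.19, SE 0.11), and Col6a1 also in EPSCs (fell by 0.67, SE 0.14, adjusted p = 0.00239).

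Some of these calls turned on a single library. In EPSCs against NSCs, Col5a1 (0.19, SE 0.15, adjusted p = 0.273), Col12a1 (0.26, SE 0.20, adjusted p = 0.259), and Col6a2 (-0.19, SE 0.11, adjusted p = 0.145) were not called, but all 3 were called without hybrid replicate 1 or hybrid replicate 2 (adjusted p 0.00970 to 0.0371). In ESCs against NSCs, Col5a2 (fell by 0.62, SE 0.17, adjusted p = 0.00907) lost its call without NSC replicate 1 (0.0568), and Col27a1 (-0.20, SE 0.09, adjusted p = 0.0724) gained one without hybrid replicate 2 (0.0341).

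The position of the hybrid cells between their parents was read from the libraries themselves. Both hybrid libraries lay above all EPSC and NSC libraries for 16 of the 25 genes, where 18.7% of all genes did, and below them for 0, where 16.2% did. They lay between the parents for 3 genes, Col11a1, Col16a1, and Col4a5, where 28.9% did. For these 3 genes, NSCs were the higher parent.

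Ratios between chains that share a molecule were read per library. The ratio of Col1a1 to Col1a2 FPKM was 0.893 ± 0.0129 in ESCs, 0.815 ± 0.0780 in EPSCs, and 0.933 ± 0.0303 in the hybrid cells. The ratio of Col4a1 to Col4a2, the pair with overlapping promoter windows, was 1.61 ± 0.0170 in ESCs, 1.92 ± 0.0955 in NSCs, 1.51 ± 0.0707 in EPSCs, and 1.32 ± 0.118 in the hybrid cells. The ratio of Col6a1 to Col6a2 was 2.04 ± 0.458, 2.82 ± 0.249, 2.00 ± 0.103, and 1.81 ± 0.0709 in the same order. The ratios are given as values, without a call. The exact two-sided permutation test used for them cannot go below p = 0.333 with 2 libraries against 2, and they were not tested with limma.

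Feeder fibroblasts are themselves a collagen source, so 12 fibroblast markers were read beside the collagen values. They summed to 13.5 and 13.7 FPKM in the ESC libraries, 13.7 and 15.3 in NSCs, 45.5 and 40.9 in EPSCs, and 154.1 and 110.6 in the hybrid cells. Of 11 tested markers, 10 were higher in hybrid cells than in EPSCs (22.5% of all genes) and 1, Mfap5, was lower (21.9%), and 9 were higher in EPSCs than in ESCs (33.7%). Dcn (decorin) was at 1.03 and 0.874 in ESCs, 10.8 and 9.70 in EPSCs, and 41.7 and 33.9 in the hybrid cells. Thy1 was at 4.40 and 5.01, 13.0 and 11.0, and 42.5 and 24.5 in the same order. In NSCs, Twist2, Fap, Lum, and Mfap5 were listed at 0 in both libraries, whereas Prrx1 (6.36 and 7.70) and Fbn1 (3.88 and 3.91) made up most of the sum. The fibroblast sum thus had the same order of feeder-cultured groups as the class sums of the fibrillar and type VI genes, and hybrid replicate 1 was above replicate 2 in each. EPSC replicate 1 was above replicate 2 in the fibroblast and type VI sums, but below it in the fibrillar sum (56.2 and 58.3 FPKM). Its part in the collagen differences was not tested.

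Values divided by this fibroblast sum were read as a description, for the genes of types I, III, V, VI, and XII given library by library. Col1a1 stood at 0.342 ± 0.0589 of the sum in EPSCs and 0.407 ± 0.0158 in hybrid cells, and Col1a2 at 0.418 ± 0.0323 and 0.436 ± 0.00280. Col3a1 was at 0.242 ± 0.0192 and 0.293 ± 0.0138, and its hybrid libraries (0.283 and 0.302) were above its EPSC libraries (0.229 and 0.256). Col6a1 was at 0.231 ± 0.00829 and 0.208 ± 0.00431, Col6a2 at 0.116 ± 0.0101 and 0.115 ± 0.00690, and Col6a3 at 0.0604 ± 0.00124 and 0.0619 ± 0.000528. Col5a1 was at 0.116 ± 0.0107 and 0.123 ± 0.00322, Col5a2 at 0.115 ± 0.00154 and 0.123 ± 0.00736, and Col12a1 at 0.0504 ± 0.00135 and 0.0520 ± 0.00886. Hybrid libraries also lay above EPSC libraries for Col1a1, Col5a2, and Col6a3, but below them for Col6a1. They overlapped for Col1a2, Col5a1, Col6a2, and Col12a1. The share over all genes was not derived on this scale, so these positions have no background to be read against. In FPKM, both hybrid libraries lay above both EPSC libraries for 19 of the 25 genes (34.5% of all genes) and below for 0 (33.6%).

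Per fibroblast sum, Col18a1 was at 4.90 ± 0.0994 in ESCs, 1.14 ± 0.0387 in EPSCs, and 0.458 ± 0.0733 in the hybrid cells, and Col4a1 at 0.600 ± 0.00901, 0.197 ± 0.0288, and 0.0875 ± 0.00233. In ESCs, Col1a1 was at 0.144 ± 0.00994 of the sum, below 0.342 ± 0.0589 in EPSCs, and Col3a1 at 0.0369 ± 0.00239, below 0.242 ± 0.0192. The NSCs, grown without feeders, had a fibroblast sum about as large as the ESCs on feeders.

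**Figure D5:**
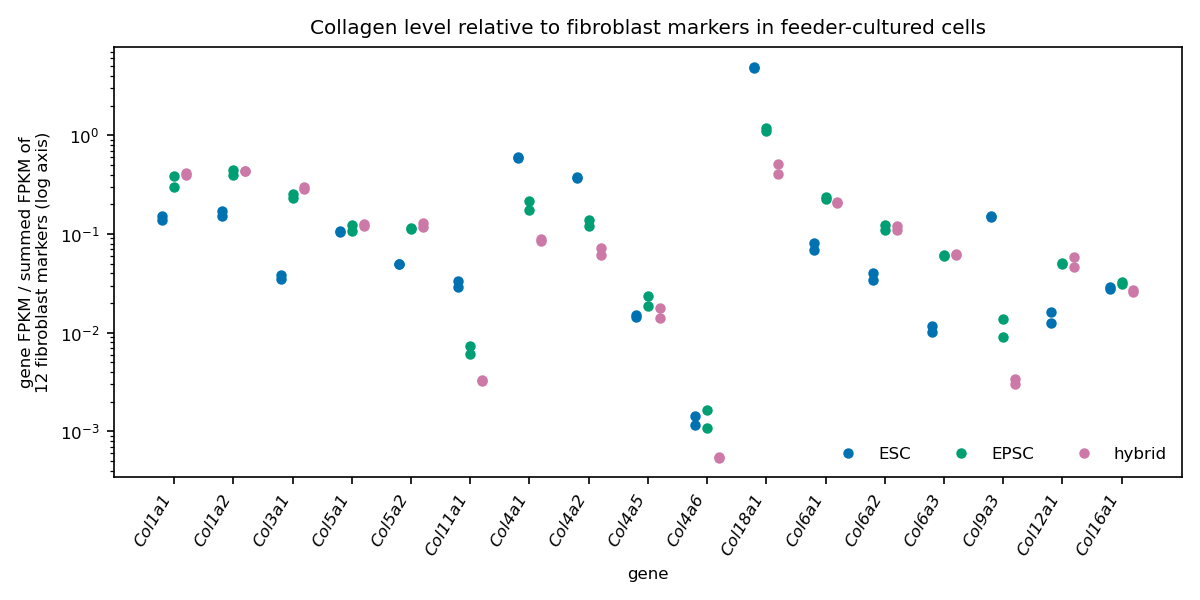
FPKM of the 17 collagen genes divided by the summed FPKM of 12 fibroblast markers (log axis) in each library of the 3 feeder-cultured groups. For Col1a2 the EPSC and hybrid points span 0.395 to 0.441, and for Col18a1, Col4a1, and Col4a2 the order is ESC, EPSC, hybrid from top to bottom.

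Markers of other cell types that make collagen were read in the same way, and their part in the collagen differences was not tested. Primitive and parietal endoderm markers summed to 14.6 to 15.0 FPKM in ESCs, 13.1 to 14.6 in EPSCs, and 11.6 to 11.8 in hybrid cells, with 1 of 5 tested higher in hybrid cells than in EPSCs (Pdgfra, against 22.5% of all genes) and 2 lower (Gata4 and Sox7, against 21.9%). Lama1, the laminin chain of early basement membranes, was at 8.01 and 7.70, 5.91 and 5.77, and 5.38 and 5.83. Endothelial markers summed to 5.26 and 4.42 FPKM in ESCs, 6.35 and 4.74 in EPSCs, and 3.20 and 3.94 in hybrid cells, and both tested genes (Tek, Esam) were lower in hybrid cells than in EPSCs. Chondrocyte and osteoblast markers summed to 2.14 and 2.42, 2.15 and 2.64, and 1.89 and 2.24 in the same order. Of these, Runx2 was higher and Matn3 lower in hybrid cells than in EPSCs.

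The machinery around collagen was read from 6 lists. Of all genes tested, 22.5% were higher and 21.9% lower in hybrid cells than in EPSCs, and 2.21% and 1.35% with over 2-fold required, which is the background for each list. Enzymes and chaperones that hydroxylate and fold the chains summed to 669 to 673 FPKM in ESCs, 938 to 944 in NSCs, 777 to 825 in EPSCs, and 866 to 941 in hybrid cells. In hybrid cells against EPSCs, 7 of 19 were higher and 1 lower by limma, none over 2-fold (0) on FPKM + 1. Of those called, P4ha3 and P3h3 had ratios of mean FPKM of 2.83 and 2.41. As P4ha3 passed the filter through the hybrid cells alone (mean 1.55 FPKM, against 0.547 in EPSCs), the filter fixed its direction. P4hb, a subunit of prolyl 4-hydroxylase, was at 358 and 295 FPKM against 256 and 236 and rose by 0.40 (SE 0.09, adjusted p = 0.0108). Serpinh1, the collagen chaperone HSP47, was at 94.8 and 81.5 against 103 and 88.5 and did not pass (-0.12, adjusted p = 0.334). Against ESCs, at 27.3 and 27.4, Serpinh1 rose in EPSCs by 1.77 (SE 0.09, adjusted p = 1e-05). Ppib, a prolyl isomerase, was at 199 and 194 in ESCs and at 296 and 279 in EPSCs (0.55, SE 0.05, adjusted p = 0.0001).

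In secretion and procollagen processing, 1 of 6 tested genes was higher and 2 were lower in hybrid cells than in EPSCs. Bmp1, which removes the C-terminal propeptide, was at 15.5 and 13.9 FPKM against 5.36 and 6.00 and rose by 1.23 (SE 0.08, adjusted p = 0.00013), but was far higher in NSCs, at 58.9 and 57.5. Pcolce, which enhances this cleavage, was at 53.8 and 51.2 against 74.9 and 72.4 and fell by 0.48 (SE 0.06, adjusted p = 0.00129). Sec23a, of the secretory vesicle coat, did not pass (0.11, SE 0.08, adjusted p = 0.279). All 4 tested crosslinking genes were higher in hybrid cells than in EPSCs. Lox was at 16.4 and 7.63 against 3.63 and 3.28 (1.46, SE 0.28, adjusted p = 0.00585), Loxl1 at 4.29 and 4.23 against 1.41 and 1.57, and Loxl2 at 11.4 and 8.43 against 3.66 and 3.34. Unlike type I and III genes, Loxl2 was highest in ESCs, at 14.7 and 15.4.

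Of 5 tested collagen receptors, 2 were higher (Ddr2, Mrc2) and 1 was lower (Ddr1) in hybrid cells than in EPSCs. Mrc2, an endocytic receptor for collagen fragments, was at 5.74 and 4.74 FPKM against 1.68 and 1.98 (1.14, SE 0.10, adjusted p = 0.00036). Itgb1, the shared integrin beta chain, was at 67.1 and 51.3 against 68.8 and 66.6 and did not pass (-0.20, SE 0.11, adjusted p = 0.18). Ddr1 was at 131 and 134 in NSCs against 5.61 to 8.22 in the other libraries. All 8 tested genes of collagen degradation and its inhibitors were higher in hybrid cells than in EPSCs, 4 of them over 2-fold on FPKM + 1. Mmp9, Mmp13, and Timp3 were below that cut, but had ratios of mean FPKM of 2.06, 4.24, and 2.35. Mmp13 passed the filter through the hybrid cells alone (mean 1.83 FPKM, against 0.431 in EPSCs), so the filter fixed its direction. Timp2 was at 32.8 and 26.4 against 9.67 and 10.7 (1.45, SE 0.11, adjusted p = 0.00016), and Timp1 at 87.9 and 73.8 against 56.4 and 51.9. Timp3 was at 11.8 and 4.76 against 3.90 and 3.13 (0.93, SE 0.32, limma adjusted p = 0.047), and at 49.8 and 48.5 in NSCs.

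Fibril-binding proteins were the last list, with 8 tested genes. In hybrid cells against EPSCs, 6 were higher (5 over 2-fold) and 0 lower by limma. Bgn (biglycan) was at 131 and 98.5 FPKM against 43.9 and 43.3 (1.36, SE 0.13, adjusted p = 0.00039), and Lum (lumican) at 18.4 and 16.7 against 5.03 and 4.02 (1.75, SE 0.10, adjusted p = 9.9e-05). Dcn rose by 1.78 (SE 0.11, adjusted p = 0.00011). Lum and Dcn are also counted among the fibroblast markers. Sparc was at 223 and 215 against 154 and 181 (0.39, SE 0.08, adjusted p = 0.00608). Fn1 (fibronectin) was at 171 and 164 against 157 and 162 and did not pass (0.06, SE 0.05, adjusted p = 0.384). In ESCs, Lum was at 0 and 0.0178, and in NSCs it was listed at 0.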

How the data were processed

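The submitters' labels and methods give poly-A libraries (TruSeq Stranded), trimming with skewer 0.2.2, alignment to mm10 with STAR 2.7.9a, and Cuffnorm of Cufflinks 2.2.1. The authors deposited FPKM per gene and library, with replicates not pooled. The annotation, the strand setting, and Cuffnorm's library normalization are not given in the sources used here. Columns were mapped by their labels. Groups were compared with limma 3.58.1 (R 4.3.3, lmFit and eBayes with trend) on log2(FPKM + 1), two-sided, with the 4 groups in 1 fit over the 13239 genes with a mean of at least 1 FPKM in a group. Benjamini-Hochberg adjustment ran over all of them, and the test was tested on simulated data. The threshold rule (mean over 3 in the higher group, ratio over 3) follows the methods and used all 24354 genes; thresholds of 2, which the study also names, were an alternative. Tables were made with Python 3.11.15 (pandas 2.3.3). Exon overlaps were read from GENCODE M21, and promoter windows from RefSeq.

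Collagen genes with a mean of at least 5 FPKM in a group are given library by library. Of each pathway list, the 3 genes with the highest group mean are named. Any other called with a change over 4-fold in hybrid cells against EPSCs or EPSCs against ESCs is also named. This fold was taken on FPKM + 1, so genes past 4-fold in FPKM alone may be unnamed. Other genes were named after their values were seen. Members, classes, and lists were chosen with earlier results of these data known. Alternatives changed the pseudocount to 0.1, the filter, the scaling, the thresholds, the groups in the fit, and the replicate block, or left out 1 library.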

Additional observations from a re-analysis of the deposited data

How the results depend on the processing

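With over 2-fold required, the counts above became 9 higher in hybrid cells against EPSCs, 2 lower against ESCs in hybrid cells and 2 in EPSCs, and 6 higher in ESCs against NSCs. With no filter on low values, 1 collagen gene was lower in hybrid cells than in EPSCs and 16 were higher in ESCs than in NSCs. With the filter at 3 FPKM, fewer genes were tested, and 2 were lower in hybrid cells and 3 in EPSCs than in ESCs. With libraries scaled to the same sum, 1 was lower in hybrid cells than in EPSCs, and 15 passed the threshold rule in ESCs against NSCs. With thresholds of 2, 13 passed that rule in hybrid cells against EPSCs. The cause was not tested. That scaling moved the median of all genes against NSCs from 0.06 to -0.50 (hybrid cells), 0.08 to -0.48 (EPSCs), and 0.03 to -0.46 (ESCs).

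Leaving out 1 library gave 15 to 18 higher and 0 lower in hybrid cells against EPSCs, and 2 to 10 on the threshold rule. Other ranges were 17 to 18 and 7 to 7 (hybrid cells against NSCs), 15 to 17 and 5 to 5 (hybrid cells against ESCs), 10 to 13 and 4 to 6 (EPSCs against ESCs), 12 to 14 and 8 to 9 (EPSCs against NSCs), and 10 to 10 and 10 to 12 (ESCs against NSCs). On the threshold rule they were 14 to 16, 9 to 11, 7 to 7, 10 to 11, and 9 to 10 in that order.

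Small log2 differences that changed sign were Col9a3 in hybrid cells against EPSCs (-0.154 to 0.0349 without 1 library, above 0 without EPSC replicate 2 or hybrid replicate 2), Col11a1 in hybrid cells against ESCs (-0.0249 with sum scaling, -0.0486 with quantile normalization, -0.0633 to 0.0698 without 1 library, below 0 without ESC replicate 1 or hybrid replicate 1), and Col4a1 in EPSCs against ESCs (-0.0101 with sum scaling, -0.0193 to 0.111 without 1 library, below 0 without EPSC replicate 2). Against NSCs, with sum scaling, Col12a1 was at -0.173 and Col5a1 at -0.35 in EPSCs and Col6a3 at -0.0678 in ESCs, and with quantile normalization Col6a2 was at 0.20 in EPSCs and Col6a3 at -0.11 in ESCs. Class medians that changed sign were transmembrane (-0.0150, quantile) and unclassed (0.0209, no filter) in hybrid cells against EPSCs, FACIT in hybrid cells against ESCs (0.0313, no filter, and 0.46, filter at 3), FACIT in EPSCs against ESCs (0.0393, filter at 3), all collagens (-0.173, sum scaling) and type VI (0.20, quantile) in EPSCs against NSCs, and all collagens in ESCs against NSCs (0.0189, no filter).

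Calls in hybrid cells against EPSCs were also lost for Col18a1 with no filter (adjusted p = 0.0663) and with only these groups in the limma fit (0.116), for Col4a1 with these and with sum scaling (0.0563 to 0.106), and for Col4a5 with only these groups (0.0504).

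In EPSCs against NSCs, calls were gained for Col5a1 (0.59, adjusted p = 0.00668) and Col12a1 (0.51, 0.0450) with quantile normalization, for Col12a1 with only these groups in the fit (0.26, 0.0257), and for Col6a2 with sum scaling (-0.77, 0.000466). With a pseudocount of 0.1, a call was gained for Col4a6 in hybrid cells against ESCs (0.55, adjusted p = 0.0265).

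The replicate numbers come from the labels alone, and same-numbered libraries deviated together with r of -0.11 to 0.28. With the replicate number as a block, 17 collagen genes were higher in hybrid cells than in EPSCs and 0 lower, Col4a1 losing its call, and the other counts did not move. As ESC and NSC libraries had r = -0.11, a crossed block was added after seeing the data and gave 10 higher and 12 lower. Depth was derived, not given, and values under about 0.03 FPKM rest on few fragments.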
